A study of Mus musculus with 14 samples.

Results

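The genes described here are 8 transcription factors of photoreceptor fate, read from H3K27ac ChIP-Seq of mouse retina at E14. They comprise 6 early factors (Otx2, Crx, Thrb, Rxrg, Prdm1 and Rorb) and 2 rod factors (Nrl and Nr2e3), chosen by name out of 22367 protein-coding genes of GENCODE vM1. For each gene, every deposited peak that overlapped the gene body or the 50 kb on either side of it by at least 1 bp was taken, which gave 10 of 13463 peaks. The study asked how LHX2, a homeodomain factor of retinal progenitor cells (RPCs), shapes accessible chromatin at E14 and P2 with ATAC-Seq, RNA-Seq and ChIP-Seq, and only the E14 H3K27ac peak list was analysed here. That list was made from retinas of CD1 mice at embryonic day 14. The sample label calls the material RPCs, whereas the methods of the study describe dissected whole retina, and no genetic change or treatment is given for it. There were 2 replicate libraries, pooled before peaks were called against 1 isotype control. A single pooled list carries no replicate error, so all values are given as a description, with their place among all peaks or genes and with no test. In such bulk material, a weak mark in many cells and a strong mark in few cells cannot be told apart.

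Photoreceptors arise from RPCs that leave the cell cycle, with cones among the early-born cells and most rods among the late-born ones. OTX2 directs newborn cells to the photoreceptor fate and activates CRX, which drives genes of the outer segment and the visual cycle. RORβ and PRDM1 act in the same newborn cells, the thyroid hormone receptor TRβ2 and its partner RXRγ set the opsin pattern of cones, and NRL with its target NR2E3 sets the rod program and represses cone genes. H3K27ac, the acetylated form of lysine 27 of histone H3, is a mark of active promoters and enhancers.

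A peak within 1000 bp of an annotated transcript start, here called a start peak, was present at 3 of the 6 early factors, Otx2, Thrb and Rorb, and at neither of the 2 rod factors. Crx, Rxrg and Prdm1 had none. Of all 22367 protein-coding genes, 49.8% had a start peak, so the share among the early factors was close to that of genes at large. Any peak in the window of gene body and flanks was found at 4 early factors and 1 rod factor, against 72.1% of all genes. When peaks at the start of another protein-coding gene were set aside, 3 early factors and no rod factor kept a peak, against 48.0% of all genes. With 6 and 2 chosen genes these counts are side by side values only.

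**Figure D1:**
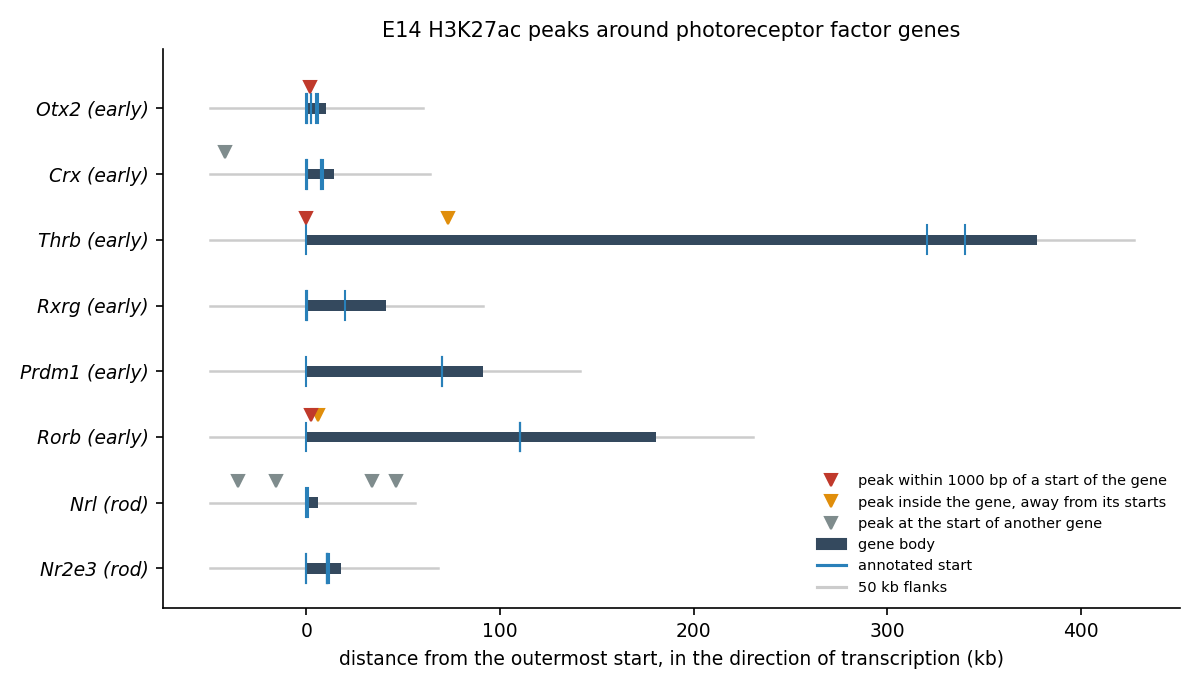
Position of each peak (triangles, at the midpoint) in the windows of the 8 genes, with distance from the outermost start in kb on the x axis, gene bodies as bars, annotated starts as lines and 50 kb flanks in grey. Start peaks lie at Otx2, Thrb and Rorb, while the 4 peaks around Nrl and the 1 near Crx lie at starts of other genes.

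The 3 start peaks were long, and their pileup was not high. MACS2 gives for each peak a mean pileup, the number of overlapping scaled fragments averaged over the peak, and a fold enrichment over the local control background. The median over all peaks was 1015 bp in length, 15.06 in pileup and 4.46 in fold enrichment. The start peak of Rorb was 4381 bp long, longer than 99.3% of all peaks and 99th in rank, with a pileup of 14.62 and a fold enrichment of 4.77. That of Otx2 was 2411 bp long, longer than 94.7% of all peaks, with a pileup of 11.14 and a fold enrichment of 4.03. That of Thrb was 2006 bp long, longer than 90.5% of all peaks, with a pileup of 13.98 and a fold enrichment of 5.71. All 3 were thus longer than at least 90.5% of peaks and below the median pileup, with Otx2 the lowest of them.

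Each start peak was also set against the peaks at least as long. Among the 719 peaks at least as long as that of Otx2, the median pileup was 16.29, and 11.4% had a lower pileup than Otx2. For Thrb, 28.3% of 1282 peaks as long had a lower pileup, with a median of 16.89. For Rorb the share was 37.0% of 100 peaks, with a median of 15.67. Within the 10302 peaks at protein-coding starts, which had medians of 1080 bp and 16.31 in pileup, the pileups of Otx2, Thrb and Rorb exceeded 11.5%, 29.9% and 35.0% of peaks. Fold enrichment ordered them differently, since Thrb exceeded 77.4% of these peaks, Rorb 51.9% and Otx2 25.8%.

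**Figure D2:**
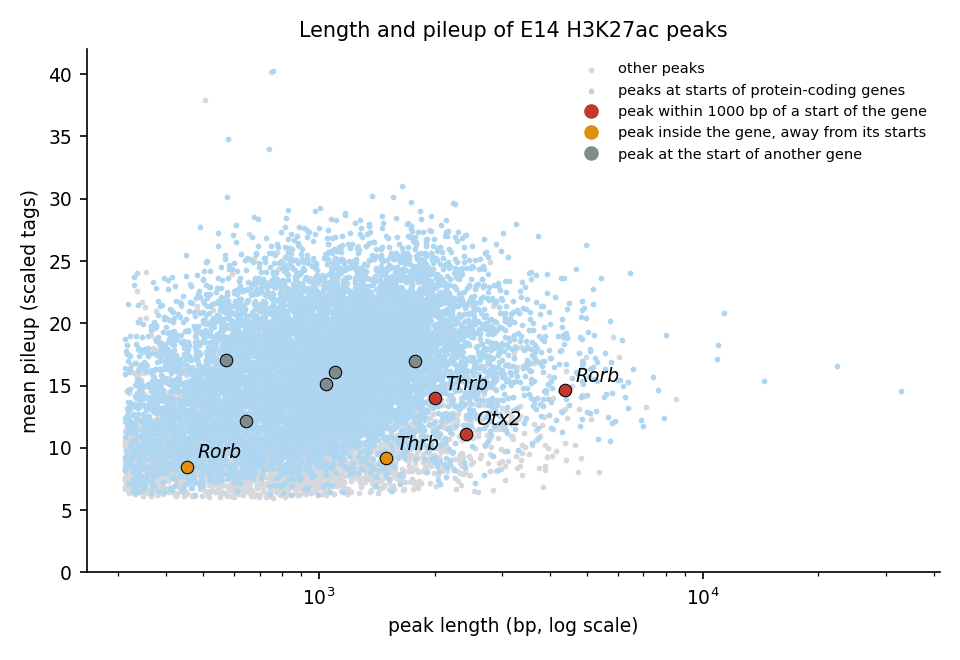
Length in bp (log scale) and mean pileup (scaled tags) of all 13463 peaks, with peaks at protein-coding starts in blue and the 10 peaks of the windows as large points. The start peaks of Otx2, Thrb and Rorb (red) lie to the right of most peaks at pileups of 11.14 to 14.62, and the intronic peaks of Thrb and Rorb (orange) lie lower.

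Otx2 (ENSMUSG00000021848.9, mm9 chr14:49277354-49287319, minus strand) is a homeodomain factor that neuronal precursors need to become photoreceptors or bipolar cells. Its only peak lay at chr14:49284397-49286807, inside the gene, with its midpoint 1.72 kb downstream of the outermost start and 21.8% of its length in exons. The gene has 7 distinct annotated starts. The peak covered the starts of Otx2-001, whose coding sequence gives the protein of 289 residues, and of Otx2-008. The 3 starts farther upstream, of Otx2-007 and Otx2-006, Otx2-002 and Otx2-004, lay 376, 381 and 512 bp outside its edge. The internal starts of Otx2-003 and Otx2-005 lay 1850 and 2790 bp away and had no start peak. The next peak was 211 kb away at the start of 6720456H20Rik, and only 3 peaks lay within 500 kb of the outermost start, against a median of 8 over all genes. The middle 300 bases of the Otx2 peak (chr14:49285453-49285752, mm9 plus strand, no annotated exon) are given as the DNA under the only peak of this gene:

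Otx2 start peak: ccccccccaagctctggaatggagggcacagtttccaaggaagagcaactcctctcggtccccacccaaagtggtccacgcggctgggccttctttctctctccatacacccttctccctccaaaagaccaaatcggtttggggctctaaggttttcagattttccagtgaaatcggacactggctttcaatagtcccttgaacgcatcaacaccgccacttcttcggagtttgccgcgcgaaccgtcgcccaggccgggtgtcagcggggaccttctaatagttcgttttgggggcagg

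None of 5 words searched in all sequences here, on both strands, was in these 300 bases. The words, chosen for the factors of this pathway, were TAATCC (CRX and OTX2), TAATTA (homeodomain factors of the paired and LIM type), AGGTCA (a nuclear receptor site), TGCTGA (part of the MAF site, the family of NRL) and CAGNTG (the E-box of bHLH factors). They occurred in the middle 300 bases of 4.14%, 2.09%, 11.4%, 15.2% and 46.4% of all 13463 peaks. None of the words contains another, and wherever one occurs in a printed sequence it is in capitals, on whichever strand it reads. A match is a description of letters and not a binding site.

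Thrb (ENSMUSG00000021779.9, mm9 chr14:18493474-18870602, plus strand) encodes the thyroid hormone receptor TRβ from alternative starts. Its start peak, chr14:18491973-18493978, covered the outermost start, that of Thrb-002 and Thrb-201, whose coding sequence gives 461 residues (TRβ1, the form found in many tissues). Of its 2006 bp, 1501 bp lay upstream of that start. Thrb-001 gives 475 residues (TRβ2, the form of cones), and its start had no peak within 1000 bp, the nearest being 247 kb away. The start of the short Thrb-202 was 237 kb from any peak. The mark at this gene thus lay at the TRβ1 start and not at the TRβ2 start.

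A second Thrb peak, chr14:18565642-18567133, lay in an intron, 72.9 kb into the gene and outside any exon. It was 1492 bp long, with a pileup of 9.17 and a fold enrichment of 3.46, above 12.0% and 12.8% of all peaks. Its −log10 q of 1.9 was the lowest of the 10 peaks, against 6.51 for the start peak, and it was lost at a q of at most 0.01. These were the only peaks within 500 kb of the outermost Thrb start. The 250 bases before the TRβ1 start (chr14:18493224-18493473) and before the TRβ2 start (chr14:18813908-18814157), both plus strand of mm9 and free of annotated exons, show the contrast between the start with a peak and the one without, and the middle 300 bases of the intronic peak (chr14:18566238-18566537) follow:

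Thrb-002 (TRβ1): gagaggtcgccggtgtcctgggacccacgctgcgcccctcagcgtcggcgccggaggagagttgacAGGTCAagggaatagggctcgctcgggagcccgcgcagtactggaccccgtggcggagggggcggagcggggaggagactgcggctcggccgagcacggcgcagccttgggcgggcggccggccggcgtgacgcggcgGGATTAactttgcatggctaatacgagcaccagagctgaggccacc

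Thrb-001 (TRβ2): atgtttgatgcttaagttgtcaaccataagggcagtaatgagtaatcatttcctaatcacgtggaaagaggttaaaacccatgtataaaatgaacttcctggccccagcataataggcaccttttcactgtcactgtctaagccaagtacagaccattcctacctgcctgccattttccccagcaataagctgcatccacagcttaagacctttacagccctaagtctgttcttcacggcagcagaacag

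Thrb intronic peak: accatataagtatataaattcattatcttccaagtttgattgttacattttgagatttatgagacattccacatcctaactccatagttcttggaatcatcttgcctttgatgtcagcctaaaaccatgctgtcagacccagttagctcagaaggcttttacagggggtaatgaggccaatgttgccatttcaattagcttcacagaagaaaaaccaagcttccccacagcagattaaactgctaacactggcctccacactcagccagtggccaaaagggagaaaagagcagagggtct

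The sequence before the TRβ1 start held 1 AGGTCA and 1 TAATCC on the opposite strand, and the others held none of the 5 words. Within 500 bp on either side, the GC content was 66.7% at the TRβ1 start and 47.3% at the TRβ2 start. The observed over expected CpG ratio, a measure of how far CpG has been retained, was 0.763 and 0.251.

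Rorb (ENSMUSG00000036192.9, mm9 chr19:19005095-19185686, minus strand) encodes the orphan nuclear receptor RORβ, which acts upstream of Nrl and is also present in RPCs, amacrine and horizontal cells. Its start peak, chr19:19181166-19185546, began 140 bp inside the start of Rorb-005 and ran downstream, so it did not cover the start itself. It had 11.5% of its 4381 bp in exons. Rorb-005 gives 459 residues (RORβ1), whereas Rorb-001, which gives 470 residues (RORβ2, a form found in retina and pineal gland), starts 104 kb from the nearest peak. A second, small peak of 454 bp, chr19:19179355-19179808, lay in an intron with its midpoint 6.11 kb from the start, with a pileup of 8.49 and a fold enrichment of 4.01. Its pileup exceeded 8.25% of all peaks, the lowest place of the 10 window peaks.

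**Figure D3:**
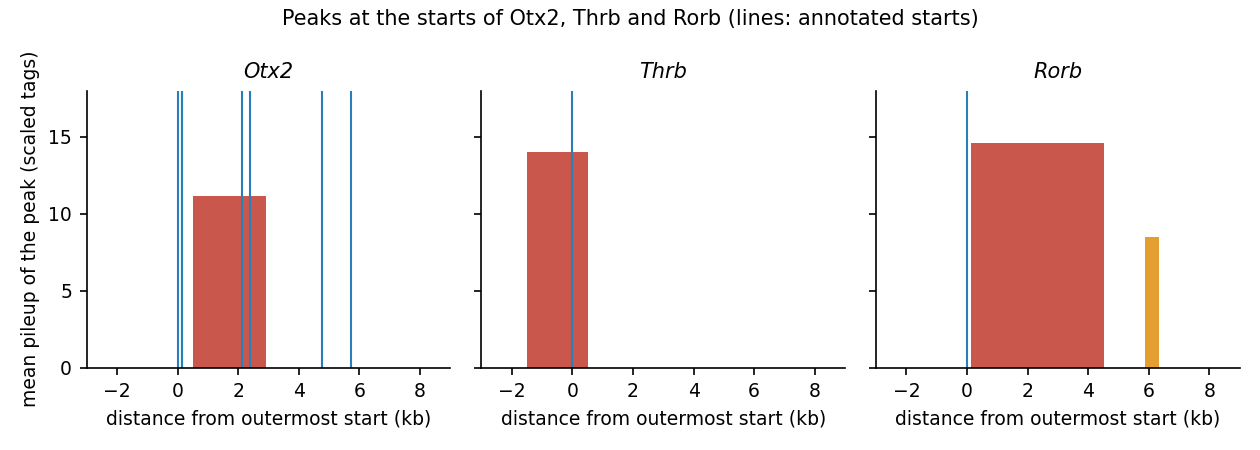
Peaks near the starts of Otx2, Thrb and Rorb, with distance from the outermost start in kb on the x axis, mean pileup in scaled tags as bar height, peak extent as bar width and annotated starts as lines. The Otx2 and Rorb peaks lie downstream of the outermost start, and most of the Thrb peak lies upstream of it.

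The 250 bases before the RORβ1 start (chr19:19185687-19185936) and before the RORβ2 start (chr19:19075608-19075857), both minus strand, and the middle 300 bases of the start peak (chr19:19183207-19183506) and of the intronic peak (chr19:19179432-19179731), both plus strand of mm9, are shown for the same contrast:

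Rorb-005 (RORβ1): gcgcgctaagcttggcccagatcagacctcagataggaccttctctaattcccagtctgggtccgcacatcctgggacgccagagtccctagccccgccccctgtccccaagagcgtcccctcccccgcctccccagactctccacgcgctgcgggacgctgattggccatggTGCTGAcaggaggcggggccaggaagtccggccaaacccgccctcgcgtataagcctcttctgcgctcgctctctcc

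Rorb-001 (RORβ2): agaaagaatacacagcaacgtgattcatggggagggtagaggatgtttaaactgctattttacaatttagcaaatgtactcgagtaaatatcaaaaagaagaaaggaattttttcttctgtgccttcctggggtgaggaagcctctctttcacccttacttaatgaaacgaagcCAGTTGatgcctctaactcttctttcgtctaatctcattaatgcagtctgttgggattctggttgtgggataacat

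Rorb start peak: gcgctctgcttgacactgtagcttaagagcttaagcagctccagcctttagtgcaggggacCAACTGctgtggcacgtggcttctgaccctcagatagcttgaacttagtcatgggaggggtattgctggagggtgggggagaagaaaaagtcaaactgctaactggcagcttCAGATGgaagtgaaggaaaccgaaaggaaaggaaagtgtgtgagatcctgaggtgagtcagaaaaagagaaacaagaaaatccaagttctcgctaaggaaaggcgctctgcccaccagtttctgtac

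Rorb intronic peak: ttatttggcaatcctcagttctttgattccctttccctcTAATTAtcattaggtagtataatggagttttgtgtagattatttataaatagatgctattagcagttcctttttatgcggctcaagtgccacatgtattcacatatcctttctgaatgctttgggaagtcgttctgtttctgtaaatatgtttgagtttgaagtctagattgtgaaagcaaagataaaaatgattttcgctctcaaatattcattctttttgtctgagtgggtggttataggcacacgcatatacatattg

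The intronic peak held the only TAATTA found in the middles of the 10 peaks, and 2.09% of all peaks held it there. The start peak held 2 E-box words. The CpG ratio was 0.616 at the RORβ1 start and 0.438 at the RORβ2 start.

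The other 3 early factors had no start peak. Crx (ENSMUSG00000041578.8, mm9 chr7:16451296-16465317, minus strand) is the homeodomain factor that OTX2 activates in photoreceptor precursors. The only peak in its window was 1099 bp long with a pileup of 16.06, lay 41.6 kb from the gene and was at the start of Sepw1, a small selenoprotein gene. All of its 6 starts were at least 41.6 kb from a peak. Rxrg (ENSMUSG00000015843.4, mm9 chr1:169528515-169569754, plus strand) encodes the retinoid X receptor RXRγ of cones. It had no peak in its window, and the nearest, of 764 bp and a pileup of 12.59, lay 163 kb downstream of the gene at no protein-coding start. Prdm1 (ENSMUSG00000038151.6, mm9 chr10:44156983-44248307, minus strand) encodes the zinc finger repressor BLIMP1, which keeps photoreceptor precursors from becoming bipolar cells. It had no peak in its window, the nearest being 168 kb away at the start of the autophagy gene Atg5, and 2 peaks lay within 500 kb of its outermost start. A window without a peak was not rare, since 27.9% of all genes had one.

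The rod factors differed from each other in their surroundings. Nrl (ENSMUSG00000040632.8, mm9 chr14:56137815-56143818, minus strand) encodes the leucine zipper factor that sets rod against cone fate. Its window held 4 peaks, or 3.77 per 100 kb, more than 90.8% of genes, and each of the 4 was at the start of another gene. They were at Pck2, a mitochondrial enzyme gene, 15.2 kb away with a pileup of 12.14, at Lrrc16b 27.3 kb away with 15.1, at Dcaf11 and A730061H03Rik 34.6 kb away with 16.99, and at Dhrs4 39.7 kb away with 17.04. Within 500 kb of the Nrl start there were 21 peaks. Nr2e3 (ENSMUSG00000032292.2, mm9 chr9:59790578-59808466, minus strand) encodes the orphan nuclear receptor that represses cone genes in rods. It had no peak in its window at any of 8 starts. The nearest lay 191 kb away at the starts of Senp8 and Myo9a, and 6 peaks lay within 500 kb.

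The 250 bases before the starts of Crx-001 (chr7:16465318-16465567) and Nr2e3-001 (chr9:59797925-59798174), both minus strand of mm9 and free of annotated exons, are given for an early and a rod factor that had no start peak at E14:

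Crx-001: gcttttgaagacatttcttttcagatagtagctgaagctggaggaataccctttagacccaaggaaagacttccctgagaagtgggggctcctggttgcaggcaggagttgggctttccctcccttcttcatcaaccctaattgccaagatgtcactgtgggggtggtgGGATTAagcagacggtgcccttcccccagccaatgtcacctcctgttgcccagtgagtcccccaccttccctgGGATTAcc

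Nr2e3-001: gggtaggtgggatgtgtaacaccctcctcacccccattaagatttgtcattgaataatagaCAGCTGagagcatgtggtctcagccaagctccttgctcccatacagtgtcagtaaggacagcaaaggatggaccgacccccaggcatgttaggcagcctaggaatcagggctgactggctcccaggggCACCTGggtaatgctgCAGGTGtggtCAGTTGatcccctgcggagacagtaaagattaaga

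Crx held 2 TAATCC words, both on the opposite strand, and Nr2e3-001 held 4 E-box words. In the 250 bp before the outermost start of the members other than Nrl, whose matches are not reported here, TAATCC was at Crx, Thrb and Prdm1, TAATTA at Otx2, AGGTCA at Thrb, TGCTGA at Rorb and CAGNTG at none. The shares of all 22367 protein-coding genes were 6.46%, 4.59%, 12.5%, 14.7% and 42.2%. These matches depended on the start chosen. The outermost start of Prdm1 is that of a transcript with no coding sequence. Before each of its coding starts there was 1 CAGNTG and no TAATCC. Before the start of Otx2-001, under the Otx2 peak, there were 1 TAATCC and 3 TAATTA.

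Density did not follow the start peaks. The windows of the 6 early factors spanned 1314 kb and held 6 peaks, or 0.457 per 100 kb, and those of the 2 rod factors spanned 223.9 kb and held 4, or 1.79 per 100 kb. The median over all genes was 0.967 per 100 kb. The early windows held 3 start peaks, 2 intronic peaks and 1 peak at another gene, while all 4 peaks of the rod windows were at other genes. Without peaks at the start of another gene the order turned, to 0.38 per 100 kb for early factors and 0 for rod factors. Gene length differed as well, from 9.97 to 377 kb among early factors and from 6.0 to 17.9 kb among rod factors. The median pileup of window peaks was 12.56 in early and 16.05 in rod windows, and the median length 1749 and 844 bp.

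Start peaks were also set against CpG content, a comparison chosen after the values were seen. The ratio of observed to expected CpG within 500 bp of the outermost start was 0.0692 at Crx, lower than at all but 3.51% of genes, 0.287 at Nrl, 0.41 at Nr2e3, 0.52 at Otx2, 0.527 at Rxrg, 0.616 at Rorb, 0.664 at Prdm1 and 0.763 at Thrb. Among all genes with a ratio under 0.3, 6.84% had a start peak, as did 0 of 2 members (Crx and Nrl). From 0.3 to 0.6 the share was 37.3%, and 1 of 3 members (Otx2, but not Rxrg or Nr2e3) had one. At 0.6 or more it was 86.4%, and 2 of 3 members (Thrb and Rorb, but not Prdm1) had one. Prdm1 was thus without a start peak in a class where most genes had one. The class depended on the start chosen, since the ratio was 0.862 and 0.879 at the coding starts of Prdm1, 0.748 and 0.705 at the Otx2 starts under the peak, and 0.227 at the coding start of Nr2e3. The part of CpG content in the presence of peaks was not tested.

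**Figure D4:**
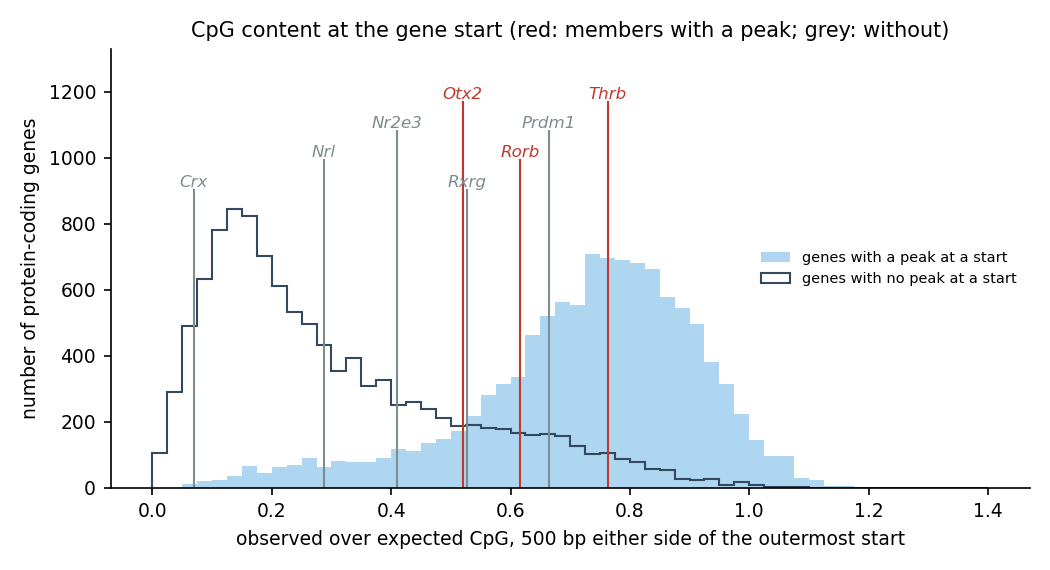
Number of protein-coding genes by observed over expected CpG within 500 bp of the outermost start, for genes with (blue) and without (line) a start peak, with the 8 members marked in red (start peak) or grey (none). Crx, Nrl and Nr2e3 lie at 0.0692 to 0.41, and Prdm1 lies at 0.664 without a peak.

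Other genes of photoreceptor development gave a mixed picture. Of 14 further regulators, 6 had a start peak (42.9%), against 49.8% of all genes. Their CpG ratios ran from 0.283 at Esrrb to 0.996 at Sall3. The median ratio of 0.601 lay at the border between the classes at 37.3% and 86.4%. The highest pileup was 20.58 at Mef2d, a MADS box factor, followed by Pias3 with 16.17, Rax with 15.42, Casz1 with 14.85, Onecut2 with 12.64 and Onecut1 with 12.63. Rax, a homeodomain factor of RPCs, and Onecut2 had the longest, at 6096 and 3970 bp. Neurod1, Samd7, Ikzf1, Neurod2, Esrrb, Mef2c, Olig2 and Sall3 had none. Among 33 photoreceptor effector genes, such as the opsins and the transducin and phosphodiesterase subunits, 2 had a start peak (6.06%), Gnb1 with a pileup of 25.79 and Rom1 with 17.05. The median CpG ratio of this list was 0.295, in the class where 6.84% of all genes had a start peak. Gnb1 and Rom1 themselves had ratios of 0.884 and 0.558, in the classes at 86.4% and 37.3%. Opn1sw, Opn1mw, Arr3 and Rcvrn were among the 31 without.

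Of the 12 closest relatives of the members, 8 had a start peak (66.7%), against 49.8% of all genes, with pileups from 12.77 to 22.37. Their median CpG ratio of 0.735 lay in the class at 86.4%. The retinoid X receptors Rxrb (22.37) and Rxra (16.13) had one while Rxrg did not, and the receptors Thra (16.23) and Rora (17.39) had one as did Thrb and Rorb. Others with one were Otx1 (15.04), Maf (15.34) and Nr2e1 (12.77, 5074 bp long). Prdm13, Prdm8 and Mafa were among the genes without.

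**Figure D5:**
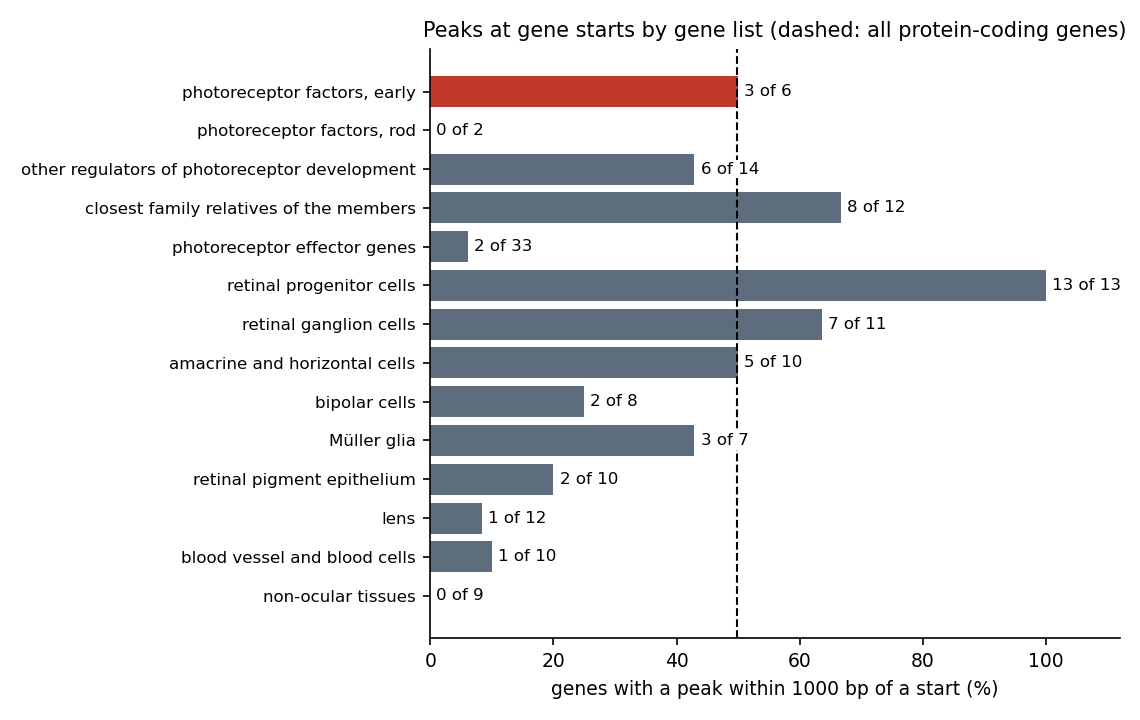
Percent of genes in each list with a peak within 1000 bp of a start, with the number of genes beside each bar and the share over all protein-coding genes (49.8%) as a dashed line. Early factors (3 of 6) and rod factors (0 of 2) are in red, and all 13 RPC genes but 2 of 33 photoreceptor effector genes have a start peak, lists whose median CpG ratios were 0.667 and 0.295.

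The lists of cell types give the setting in which the members were read. All 13 RPC markers had a start peak, from 2395 to 32865 bp long with pileups from 12.28 to 20.15, led by Six6, Lhx2, Six3 and Hes5. Their median CpG ratio was 0.667, in the class where 86.4% of all genes had one. Of the markers of retinal ganglion cells, 7 of 11 had one, led by Atoh7, and of amacrine and horizontal cells 5 of 10, led by Prox1. Of bipolar cells 2 of 8 (Isl1 and Prkca) and of Müller glia 3 of 7 (Glul, Slc1a3 and Apoe) had one. The median CpG ratios of these 4 lists were 0.759, 0.707, 0.424 and 0.477, the first and second in the class at 86.4% and the others in that at 37.3%. Some genes stood in more than 1 list, Isl1 as a ganglion and bipolar cell marker, Rax as a regulator and RPC marker, Onecut1 and Onecut2 as regulators and horizontal cell markers and Rlbp1 as a marker of glia and pigment epithelium, so these lists are not independent. With a fold enrichment of 4 or more and a q of 0.001 or less, 12 RPC, 3 ganglion cell and 1 amacrine and horizontal marker kept a start peak, and 3 ganglion cell markers did when the peak had to cover the start. For tissues beside the retina, 2 of 10 markers of retinal pigment epithelium (Rdh5 and Pmel), 1 of 12 of lens (Bfsp1), 1 of 10 of vessels and blood (Kdr) and 0 of 9 of non-ocular tissues had one. Their median CpG ratios were 0.212, 0.259, 0.3 and 0.284, in or at the edge of the class at 6.84%. All the lists here held genes of more than 1 class, as lens did with Foxe3 (0.734) and Bfsp1 (0.79). A median thus does not give the share for a whole list, and the part of CpG content in these counts was not tested. The pileups of Thrb and Rorb lay within the range of the RPC start peaks and that of Otx2 below it, and the shortest RPC start peak was longer than that of Thrb.

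By summed difference in percentile of start peak length, pileup and number of window peaks, over a pool of 46 listed genes with a start peak and this 1 sample, the genes most like each member were as follows. Rorb was nearest to Sfrp2 (2.59 percentile points) and Otx1 (7.35). Thrb was nearest to Foxn4 (12.7) and Sfrp2 (13.5), and Otx2 to Onecut2 (12.8) and Stmn2 (13.5). Sfrp2 is a secreted WNT modulator of RPCs, Foxn4 a factor of amacrine and horizontal precursors, and Stmn2 a tubulin-binding protein of differentiating neurons.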

How the data were processed

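H3K27ac ChIP-Seq of E14 retina was analysed from 1 deposited MACS2 list. The authors aligned reads to mm9 with Bowtie2, pooled 2 replicate libraries and called broad peaks (broad cutoff 0.1) with MACS 2.1.0.20140616 against 1 isotype control, keeping at most 1 tag per position. Per the file header, 113543038 of 159237447 ChIP tags and 9210563 of 27735759 control tags remained, a ratio of 12.3, and MACS2 scaled the larger library down, so the shallow control limits precision. The deposited pileup signal, fold enrichment ratio and −log10 p and q values are averages over each peak. No error per peak exists, and no test was run.

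Peaks were compared with GENCODE vM1 in Python 3.11.15 (numpy 2.4.6, pandas 2.3.3), by overlap of at least 1 bp. All peaks lay within the mm9 chromosomes. A percentile is the share of peaks or genes with a lower value. The code was tested on simulated data. Sequences were read from mm9 (NCBIM37). Symbols Tfap2a and Tfap2b were matched through RefSeq synonyms, and 1 listed symbol, Samd11, had no match. Members and lists were chosen with earlier results of these data known. Named were all members, neighbours with a start peak in a window, the genes of the regulator and relative lists, up to 4 leading genes of other lists and the 2 genes most like each member. Opn1sw, Opn1mw, Arr3, Rcvrn and genes beyond the windows were named after their values were seen. Where a gene had several start peaks, the one with the highest pileup was used. Alternatives varied the start definition, window, threshold, merging and overlap. ATAC-Seq, RNA-Seq and the P2 ChIP-Seq were not analysed here. A few genes of these lists and 1 sequence are not reported here.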

Additional observations from a re-analysis of the deposited data

How the results depend on the processing

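Otx2 and Thrb had a start peak, and the rod factors, Crx, Rxrg and Prdm1 had none, under all 5 planned definitions of a start and thresholds and with starts of protein-coding transcripts alone, the last added after the data were seen. Rorb kept its start peak except when the peak had to cover the start itself, which left 2 early factors. The number of peaks in the rod windows fell from 4 to 1 with 25 kb flanks and to 0 without peaks at the start of another gene. The difference in peaks per 100 kb, early minus rod, was -1.33, and it was -0.314 with 25 kb flanks and 0.38, of opposite sign, without peaks at the start of another gene. The last follows from the 4 peaks around Nrl being at other genes; for the 25 kb flanks, the peak near Crx and 3 of those around Nrl were then outside. The intronic peak of Thrb was lost at a q of at most 0.01, and those of Thrb and Rorb when peaks needed 4-fold enrichment and a q no higher than 0.001. With that threshold 3 of 6 early factors kept their start peak, Otx2 only narrowly, at a fold enrichment of 4.03 and a −log10 q of 3.11. The share of all genes with a start peak fell from 49.8% to 37.8%. The genes with one fell from 8 to 5 among relatives, 7 to 3 among ganglion cell markers, 5 to 1 among amacrine and horizontal, 3 to 1 among Müller, 2 to 1 among bipolar and among pigment epithelium and 1 to 0 among vessel and blood markers. With the start itself covered, the share of all genes was 44.2%, ganglion cell markers fell to 3 and pigment epithelium to 0, and from 5000 bp upstream effector genes rose from 2 to 4. In 500 bp before the start, of the members other than Nrl, CAGNTG was at Thrb, Rorb and Nr2e3 (66.9% of all genes), TGCTGA at Rorb and Nr2e3 (27.7%) and TAATTA at Otx2 and Rorb (10.4%). Replicates were pooled before peaks were called, so none could be left out. No paired analysis was possible because the result comes from 1 pooled list and no test. The control, with 9210563 tags, limits what can be called, and a missing peak means that none passed the threshold at this depth.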

Other observations

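Most peaks near the members but beyond the 50 kb flanks were at starts of other genes, and some of the exceptions are given here as values, chosen after they were seen. Downstream of Rorb, 54.6 kb from the gene, a peak of 3446 bp at chr19:18947025-18950470 had a pileup of 10.03 and a fold enrichment of 4.38. It was at no protein-coding start and was the only such peak between 50 and 100 kb of any member. Upstream of Crx, 166 kb from the gene, a peak of 2838 bp at chr7:16631620-16634457 had a pileup of 21.35 and a fold enrichment of 5.01, also at no protein-coding start. The more distant of the 2 peaks within 500 kb of Prdm1, at chr10:44720115-44720690, was 472 kb away and 576 bp long with a pileup of 12.64. No peak of this kind was found within 500 kb of Otx2. Which gene, if any, these peaks act on was not tested.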
